A study of Mus musculus with 8 samples.

Results

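Collagen-induced arthritis was examined in mice that all received the peptide MLIF. The comparison set paw RNA of collagen-immunised, peptide-treated mice (CIA + MLIF) against paw RNA of adjuvant-treated, peptide-treated mice (adjuvant + MLIF), with 2 arrays in each group and thus 4 of the 8 arrays of the series. Members were the 28944 probe sets of these arrays other than control entries, and 5534 of these probe sets carry no gene symbol. A probe set is the group of probes on the array that reports 1 transcript. The mice were DBA1/J males of 8 to 10 weeks, 8 in each group. CIA + MLIF mice were injected in the skin at the tail base with 150 µg of type II collagen from chicken, emulsified in complete Freund adjuvant, had a booster in incomplete adjuvant 3 weeks later, and were given MLIF through the nose every week from 1 week before the immunisation. Adjuvant + MLIF mice had the same adjuvants without collagen and weekly nasal MLIF during 9 weeks. The other 4 arrays came from CIA mice and adjuvant mice that had no peptide, and show what collagen did without it. The labels date the collection of the paws at 4 weeks after the booster, whereas the series text places it before the booster. Arrays of a group are labelled as biological replicates, without a statement whether each was made from 1 mouse or from pooled mice, so the p-values measure only the spread between these arrays.

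Collagen-induced arthritis is a mouse model in which immunity to cartilage collagen inflames the joints, with neutrophils and macrophages entering the synovium and osteoclasts eroding bone. MLIF stands for monocyte locomotion inhibitory factor, a short peptide from the amoeba Entamoeba histolytica that is studied for anti-inflammatory effects. A whole paw holds joint, bone, muscle, tendon and skin. Whether every sample held each of these, and in what share, was not measured. In the epidermis keratinocytes move outward from a basal layer that makes Krt5 and Krt14, through suprabasal layers that make Krt1 and Krt10, to a cornified envelope built of loricrin and late envelope proteins, while the hair shaft is made of its own keratins and of keratin-associated proteins that cross-link them. In such bulk RNA, fewer cells of a type and less RNA per cell cannot be told apart.

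Levels are given as log2 signals, centred so that every array has the same median. A step of 1 on this scale is a 2-fold difference. Replicate arrays correlated across probe sets at r = 0.988 to 0.999, which is a description of these arrays since probe sets are not replicates. The arrays of adjuvant + MLIF were unusually alike: the SD of the difference between them was 0.0936, against 0.263 for CIA + MLIF, 0.207 for adjuvant and 0.324 for CIA. The counts of calls were therefore also made with these arrays averaged and entered as 1, and are given below where that moved them by more than 1.5 times. Before centring, CIA replicate 1 had a median of 6.66 over the probe sets tested and the other 7 arrays lay between 7.07 and 7.10. As markers of the labelled articular tissue, Acta1 of skeletal muscle, Comp of cartilage and tendon and Col1a1 of bone had levels from 11.8 to 14.7 on all 8 arrays.

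The comparison asked what collagen immunisation changed in paws of peptide-treated mice. Genes of the epidermis and of the hair shaft were higher in CIA + MLIF, a few immediate-early genes were higher, and a small group that holds interferon-induced genes, the chemokines Cxcl9 and Ccl5 and eosinophil major basic protein was lower. In all, 304 probe sets were higher (1.05% of those tested) and 36 were lower (0.124%), together 1.17%, at an adjusted p under 0.05, and 3113 had an unadjusted p under 0.05. The rises were much larger than the falls: 194 rises passed a log2 difference of 1, 91 passed 2 and 21 passed 4, while 8 falls passed -1 and the largest was -1.31. The median difference over all probe sets was -0.04 and the median standard error 0.13. With the adjuvant + MLIF arrays averaged, 175 higher and 4 lower probe sets were left. Leaving out adjuvant + MLIF replicate 1 gave 180 and 5, leaving out replicate 2 gave 171 and 4, and leaving out CIA + MLIF replicate 1 gave 188 and 14. An exact permutation test of 2 arrays against 2 cannot give a p below 0.333, so every call rests on the spread that limma shares among probe sets.

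**Figure D1:**
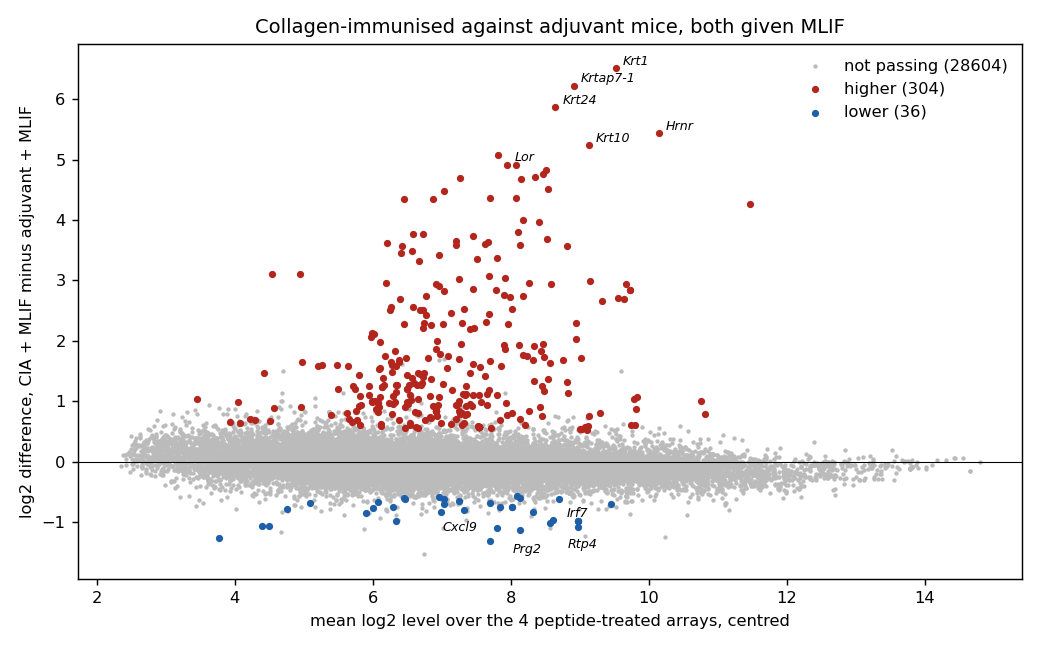
Log2 difference between CIA + MLIF and adjuvant + MLIF (vertical axis) against the mean log2 level over the 4 peptide-treated arrays (horizontal axis), 1 point per probe set. The 304 probe sets that were higher (red) reach a difference of 6.51 at Krt1, and the 36 that were lower (blue) go down to -1.31.

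In the list of epidermal and cornified envelope genes, 21 of 26 measured members rose and none fell, where 1.05% of all probe sets rose. The median log2 difference was 3.62 against -0.04 over all probe sets. The mean level of the list was 9.10 and 9.23 on the CIA + MLIF arrays and 6.12 and 6.10 on the adjuvant + MLIF arrays. The groups were far apart, and the adjuvant + MLIF arrays lay where the adjuvant arrays lay (6.06 and 6.04). The median of the control entries was 6.25 on both adjuvant + MLIF arrays, above the list mean there. For adjuvant replicate 1 it was 6.34 and for replicate 2 it was 6.24, again above the list mean. As a mean, the list thus gave no signal above the control entries in either group without collagen. Single members did, such as Hrnr at 7.44 and 7.41 in adjuvant + MLIF. Whether the samples held different shares of skin, or some held none, was not tested, and this cannot be told apart from a change within skin. The count of rises was 19 with the adjuvant + MLIF arrays averaged and 21 both on the values as deposited and after quantile normalization.

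The largest difference was that of Krt1, a type II keratin of the suprabasal epidermis (probe set 10432852). Its level was 12.69 and 12.86 on the CIA + MLIF arrays and 6.29 and 6.25 on the adjuvant + MLIF arrays, a difference of 6.51 (SE 0.16, adjusted p = 2.95e-07, limma). Its partner Krt10, the type I keratin of the same layers, had 11.57 and 11.93 against 6.62 and 6.40 (difference 5.24, SE 0.21, adjusted p = 2.66e-06). No array of one group came near the other group in either gene. In the basal layer, Krt5 stood at 10.51 and 10.88 against 5.986 and 6.002 (difference 4.70), and Krt14 at 9.93 and 10.10 against 6.19 and 6.23 (difference 3.80). Thus markers of the basal and of the suprabasal layers rose together. Krt2, a keratin of the upper layers, rose by 5.08, Krt9, the keratin of the footpad and palm, by 4.83, and Krt24 by 5.87.

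Among proteins of the cornified envelope and its assembly, Hrnr, the filaggrin relative hornerin, had levels of 12.78 and 12.94 in CIA + MLIF and 7.44 and 7.41 in adjuvant + MLIF (difference 5.43, SE 0.14, adjusted p = 3.31e-07). Lor, which encodes loricrin, the bulk protein of the envelope, had 10.56 and 10.25 against 5.41 and 5.57 (difference 4.91). Both separated completely between the groups. Calm4, a calmodulin-like protein of the epidermis, rose by 4.36, Lce1c by 4.003 and Krtdap, keratinocyte differentiation-associated protein, by 3.66. The desquamation proteases Klk7 and Klk5 rose less, by 1.25 and 1.16, and Casp14, the caspase of cornification, by 0.96. Of the 5 members that did not pass, Ivl (involucrin) differed by 0.30 (95% interval 0.03 to 0.57) and Krt15, a keratin of basal and hair follicle bulge cells, by 0.25 (-0.19 to 0.69). Trp63, the master factor of stratified epithelium, differed by 0.59, Serpinb3a by 0.61 and Krt77, a keratin of eccrine sweat glands, by -0.20. These 5 were named after their values were seen.

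The stretches just before the annotated start of the named rises are shown because they share a letter pattern that the array values did not use. Of the 12 named rises, 10 had a window in RefSeq's promoter table (GRCm38.p6) and 6 of these hold TATAAA, the core of a TATA box, on the gene's own strand within the last 60 bases before the start. The 6 stretches are printed 5′ to 3′ with these letters in capitals. They end at the base before the start and lie at chr3:92083143-92083202 (minus strand) for Lor, chr3:93319689-93319748 (plus) for Hrnr, chr11:99389365-99389424 (minus) for Krt10, chr16:88751629-88751688 (minus) for Krtap13, chr16:89420112-89420171 (minus) for Krtap6-2 and chr16:89487953-89488012 (minus) for Krtap8-1.
Lor: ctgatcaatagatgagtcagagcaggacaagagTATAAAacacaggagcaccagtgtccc
Hrnr: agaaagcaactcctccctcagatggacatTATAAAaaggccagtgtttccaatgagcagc
Krt10: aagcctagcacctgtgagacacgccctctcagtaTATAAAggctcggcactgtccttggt
Krtap13: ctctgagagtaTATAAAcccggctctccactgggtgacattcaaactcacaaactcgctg
Krtap6-2: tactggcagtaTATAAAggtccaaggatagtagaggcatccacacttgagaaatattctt
Krtap8-1: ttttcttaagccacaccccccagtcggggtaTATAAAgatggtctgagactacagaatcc
In Lor, Hrnr, Krt10 and Krtap8-1 the pattern begins 26 to 31 bases before the annotated start, and in Krtap13 and Krtap6-2 it begins 49 bases before it. In RefSeq's promoters as a whole, 2.87% of 32851 windows hold the pattern in this place. Over genes, 48 of the 179 risen genes with a window hold it (26.8%), against 579 of 15614 measured genes (3.71%). Without the keratin-associated proteins, whose members resemble each other, it was 32 of 157 (20.4%). Other families, such as keratins and late cornified envelope genes, were not left out, so the genes counted are not all unrelated. A match is a description of these letters and shows no factor at work.

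Genes of the hair shaft rose alongside. In the list of hair follicle genes 7 of 18 measured members rose and none fell (median difference 0.21), where 1.05% of all probe sets rose. Grouped by symbol, 10 of 13 hair keratins rose (median 2.28) and 24 of 44 keratin-associated proteins (median 1.31). These symbol groups, like the other gene families named below, were formed after the values were seen and are given as descriptions.

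Krtap7-1, a glycine- and tyrosine-rich hair protein, was at 11.91 and 12.13 on the CIA + MLIF arrays and at 5.811 and 5.798 on the adjuvant + MLIF arrays (difference 6.22, SE 0.14, adjusted p = 2.95e-07). Krtap8-1 was at 10.71 and 10.88 against 6.37 and 6.19 (difference 4.52). Krtap6-2 was at 10.53 on both arrays against 5.58 and 5.66 (difference 4.91), and Krtap13 at 9.18 and 9.37 against 4.81 and 4.79 (difference 4.48). All 4 genes were high on every CIA + MLIF array and low on every adjuvant + MLIF array. Among the keratins of the shaft, Krt84 rose by 3.61, Krt86 by 3.35, Krt33b by 2.98, Krt87 by 2.94, Krt33a by 2.74 and Krt31 by 2.73. Krt82, Krt40 and Krt32 did not pass, with differences of 0.04, 0.16 and -0.21. Many members of both families are near copies of each other, so probe sets may share signal.

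Keratins of the inner root sheath, the cell layers that mould the growing hair, gave no calls. None of 8 measured members passed (median 0.12, range -0.07 to 0.22). This count is near the 1.17% over all probe sets and by itself no result about these genes. In adjuvant + MLIF 6 of the 8 lay below the median of the control entries, so their low levels are not well measured. Krt25 had levels of 5.43 and 5.42 in CIA + MLIF and 5.30 and 5.26 in adjuvant + MLIF (difference 0.14, 95% interval -0.08 to 0.37), and Krt71 had 6.48 and 6.17 against 6.45 and 6.35 (difference -0.07, -0.39 to 0.24). Without peptide, collagen moved Krt25 by 2.86 and Krt71 by 3.02, and both interactions passed (-2.72, adjusted p = 8.67e-06, and -3.09, adjusted p = 2.39e-05). Many genes named here for the shaft thus were high in CIA + MLIF paws in which Krt25 and Krt71 stood near their low levels in the adjuvant groups. Shaft is a name for a gene group here, and which structure of the paw made these transcripts was not tested.

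The interaction is the collagen effect with peptide minus the collagen effect without it. In the epidermal list 22 of 26 members had a smaller rise with peptide and none a larger one (interaction background 8.13% lower and 8.2% higher). Krt2 rose by 5.08 with peptide and by 7.08 without (interaction -2.003, adjusted p = 0.000341), Lor by 4.91 and 6.34 (-1.43, adjusted p = 0.00171) and Krt1 by 6.51 and 7.44 (-0.94, adjusted p = 0.0229). The mean of Krt1 was 12.78 in CIA + MLIF and 13.20 in CIA, but 6.27 in adjuvant + MLIF and 5.75 in adjuvant. Part of its interaction is thus a difference between low levels that are not well measured. For Krt5 and Krt9 the interaction did not pass (-0.49 and -0.55, adjusted p = 0.256 and 0.152). On the values as deposited, where the low CIA replicate 1 is not centred, 9 of the 26 passed lower and none higher.

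In the hair follicle list 3 of 18 members had a larger rise with peptide and 6 a smaller difference (median interaction -0.12), and 14 members rose without peptide (median 1.605) against 7 with it. The list holds both shaft and root sheath genes, and of the 8 root sheath keratins 4 interactions passed lower and none higher. Among shaft genes, Krtap7-1 rose by 6.22 with peptide and by 3.95 without (interaction 2.27, adjusted p = 0.000166). Its mean was 5.80 in adjuvant + MLIF, below the control-entry medians of those arrays (6.247 and 6.254), and 6.34 in adjuvant, so part of this interaction is a difference between low levels that are not well measured. Its levels of 11.91 and 12.13 in CIA + MLIF lay above the 10.11 and 10.46 of the CIA arrays. Krtap8-1 rose by 4.52 and 3.14 (1.38, adjusted p = 0.000843), with 10.71 and 10.88 in CIA + MLIF above the 9.58 and 9.67 of the CIA arrays. Of the keratin-associated proteins 10 had a larger rise with peptide and 6 a smaller one, and of the hair keratins 5 had a larger and 2 a smaller one. For Krtap6-2, whose CIA arrays were 8.22 and 9.62, the interaction of 1.57 did not pass (adjusted p = 0.0652). The mean level was higher in CIA + MLIF than in CIA for 11 of 13 hair keratins and 26 of 44 keratin-associated proteins. Among keratins grouped as epidermal this held for 1 of 9 of type II, Krt90, and 1 of 6 of type I, Krt42. Krt90 and Krt42 rose by 3.04 and 2.53 with peptide and both by 1.46 without.

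**Figure D2:**
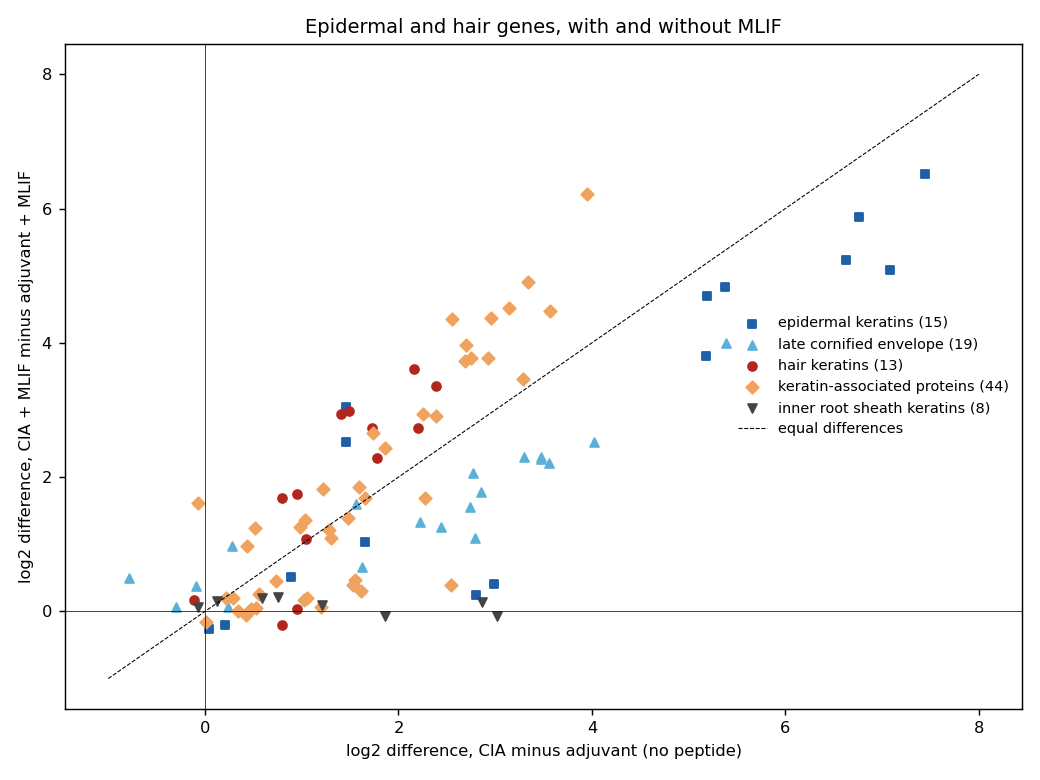
Log2 difference with peptide (vertical axis, CIA + MLIF minus adjuvant + MLIF) against that without (horizontal axis, CIA minus adjuvant) for 5 gene families, 1 point per gene, with a dashed line where both are equal. Epidermal keratins and late cornified envelope genes lie mostly below the line, most shaft keratins and many keratin-associated proteins above it, and the 8 inner root sheath keratins along 0 on the vertical axis.

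Further genes of stratified epithelium rose with them, where 1.05% of all probe sets rose. Of 19 late cornified envelope genes 14 rose (median 1.55), but of 13 small proline-rich envelope proteins 2, Sprr2b and Sprr1b (median 0.20), and 1 without CIA + MLIF replicate 1 or 2 or without adjuvant + MLIF replicate 2. Of 14 desmosomal genes 8 rose (median 1.27), led by Dsp, which encodes desmoplakin (10.44 and 10.31 against 6.70 and 6.66, difference 3.69). Serine protease inhibitors of the skin rose in part: 5 of 24 clade B serpins, with Serpinb5 at 3.49, and 3 of 13 Spink genes, with Spink12 at 2.56 and Spink5, the inhibitor lost in Netherton syndrome, at 2.46. Of 22 tissue kallikreins 3 rose, and 1 with the adjuvant + MLIF arrays averaged or without any 1 of the 4 arrays compared. None of 6 measured keratins of simple epithelia, such as Krt8 and Krt18, passed, with differences from -0.01 to 0.29.

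Keratins of stressed and healing epidermis rose as well, with 7 of 17 members of that list higher (1.05% of all probe sets) and none lower (median 0.64). Krt6b had 8.70 and 7.73 in CIA + MLIF against 4.70 and 4.59 in adjuvant + MLIF (difference 3.57), Krt6a had 8.13 and 7.83 against 5.53 and 5.42 (2.51) and Krt16 had 8.02 and 7.86 against 5.29 and 5.56 (2.51). The CIA + MLIF arrays were high throughout. These keratins, which are also made by hair follicle and footpad skin, rose by 1.63, 1.80 and 1.62 without peptide, and the interaction passed for Krt6b (1.94, adjusted p = 0.00858) and Krt6a (0.72, adjusted p = 0.0288) but not for Krt16 (0.89, adjusted p = 0.0903). Krt17 rose by 1.47 with peptide and 3.17 without (interaction -1.71, adjusted p = 0.00312). Il1f9, the epithelial cytokine IL-36 gamma, rose by 0.85 with peptide and 3.32 without (interaction -2.47, adjusted p = 3.07e-05).

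Of the sebaceous and barrier lipid genes 5 of 16 rose (1.05% of all probe sets), and all 5 act in the ceramide barrier of the epidermis. Elovl4, which makes very long fatty acids, was at 8.59 and 8.56 against 6.304 and 6.424 (difference 2.21), and the lipoxygenases Alox12b and Aloxe3 rose by 1.71 and 1.28, the lipid transporter Abca12 by 1.58 and the ceramide synthase Cers3 by 1.20. The genes of sebum lipid synthesis did not pass: Scd1 differed by 0.20 (95% interval -0.04 to 0.44) and Fasn by 0.34 (0.10 to 0.59). Both are also adipocyte genes.

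The rises lay close together on chromosomes. Of 230 risen genes with a place in RefSeq, 86 fell into 5 runs of at least 5 rises, in which neighbouring rises were at most 5 measured genes apart. On chromosome 11 the run from Tns4 to Jup, which spans the type I keratins and keratin-associated proteins, held 30 rises among 53 measured genes. On chromosome 16 the keratin-associated run ending at Krtap11-1 held 22 of 29, on chromosome 3 the run from Lce6a to Rptn 18 of 26, on chromosome 15 the run from Nr4a1 to Krt78, across the type II keratins, 11 of 28, and on chromosome 1 the run from Serpinb5 to Serpinb2 5 of 9. The other rises were scattered, with 105 standing alone. Genes of these families sit side by side in the genome, so the runs repeat the family counts above.

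**Figure D3:**
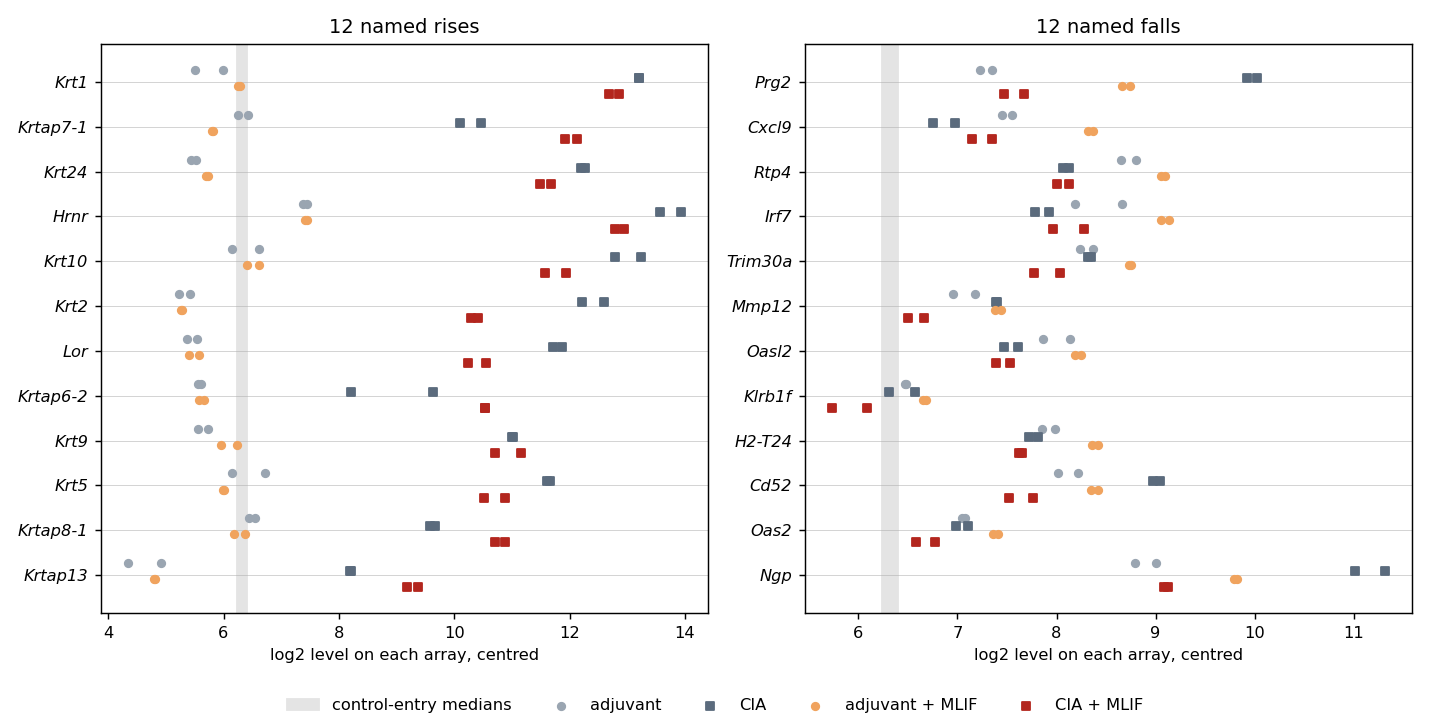
Centred log2 level on each of the 8 arrays for the 12 rises (left) and the 12 falls (right) that the naming rule chose by size among passing probe sets with 1 symbol, 2 points per group, with the range of the control-entry medians in grey. In every rise the adjuvant groups sit at 4 to 8 and both collagen groups at 8 to 14; in the falls the adjuvant + MLIF arrays all lie above the CIA + MLIF arrays, with differences from -0.70 to -1.13, and 3 genes, Prg2, Cd52 and Ngp, are highest in CIA.

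Of the 231 named genes that rose, 40 were in the epidermal, hair, stress keratin or barrier lipid lists, 58 more in the families, and 133 in neither. The 133 include many other genes of stratified epithelium, such as Trim29 (3.38), Dmkn (2.83), Lgals7 (2.75), Tgm3 (1.94), Aqp3 (1.93) and Cdh1 (0.80), chosen here after their values were seen. In adjuvant + MLIF 156 of the 304 rises lay below the median of the array's control entries, against 34.1% of all probe sets, so the low end of those rises, and of the interactions that rest on it, is not well measured.

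Immediate-early genes, which cells switch on within minutes of a stimulus, held the most rises of the lists outside the skin. In that list 6 of 26 members rose (1.05% of all probe sets) and none fell (median 0.31). On 21 of 26 both CIA + MLIF arrays were above both adjuvant + MLIF arrays (20.2% of all probe sets). Fosb was at 8.39 and 8.28 against 6.90 and 6.95 (difference 1.41, SE 0.11, adjusted p = 0.000176). Fos was at 8.20 and 8.23 against 7.12 and 7.06 (difference 1.12, SE 0.10, adjusted p = 0.000444). Both AP-1 subunits separated fully between the groups. Nr4a1, an orphan nuclear receptor, rose by 1.07, Dusp1, a MAP kinase phosphatase, by 1.01, the stress factor Atf3 by 0.85 and Egr1 by 0.78.

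It was the adjuvant + MLIF arrays that stood low for these genes. Fos was at 8.68 and 8.73 on the adjuvant arrays and 7.92 and 7.90 on the CIA arrays, both above adjuvant + MLIF. The mean of the list was 8.68 and 8.65 in CIA + MLIF, 8.21 and 8.21 in adjuvant + MLIF, 8.59 and 8.60 in adjuvant and 8.73 and 8.63 in CIA. Without peptide the collagen effect was -0.80 for Fos, -0.64 for Nr4a1, -0.78 for Egr1 and -0.65 for Dusp1, and the interaction passed for all 6 risen genes (0.95 to 1.92), with Fos reaching 1.92 (adjusted p = 4.76e-05). The count of 6 fell to 2 with the adjuvant + MLIF arrays averaged, to 3 and 2 without adjuvant + MLIF replicate 1 or 2, and to 2 without CIA + MLIF replicate 1. Jun and Junb differed by 0.49 and 0.51 without passing, and Ier2 and Myc by 0.17 and 0.04; these 4 were chosen after their values were seen. Epidermal genes were high in the same arrays as these rises, and their part in the result was not tested.

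Of the 5 risen immediate-early genes with a promoter window used here, Dusp1 alone holds the palindrome TGACGTCA, the cAMP response element, within 250 bases before the start, on either strand (1.55% of all windows hold it). The stretch, at chr17:26508581-26508640 (minus strand, GRCm38.p6), is shown with it in capitals because Dusp1 is in both the immediate-early and the anti-inflammatory lists.
Dusp1: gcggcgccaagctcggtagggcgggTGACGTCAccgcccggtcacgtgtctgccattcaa
In the anti-inflammatory list 2 of 22 rose, Dusp1 and Socs3, where 1.05% of all probe sets rose. Socs3, the inhibitor of cytokine signalling, was at 8.51 and 8.52 against 7.94 and 7.88 (difference 0.61, adjusted p = 0.0497). Socs3 rose by 0.98 without peptide. None of the 22 passed with the adjuvant + MLIF arrays averaged or without any 1 array of CIA + MLIF, adjuvant or adjuvant + MLIF. Il10 and Tgfb1 did not pass (0.20 and -0.24, chosen after their values were seen or for their signal).

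**Figure D4:**
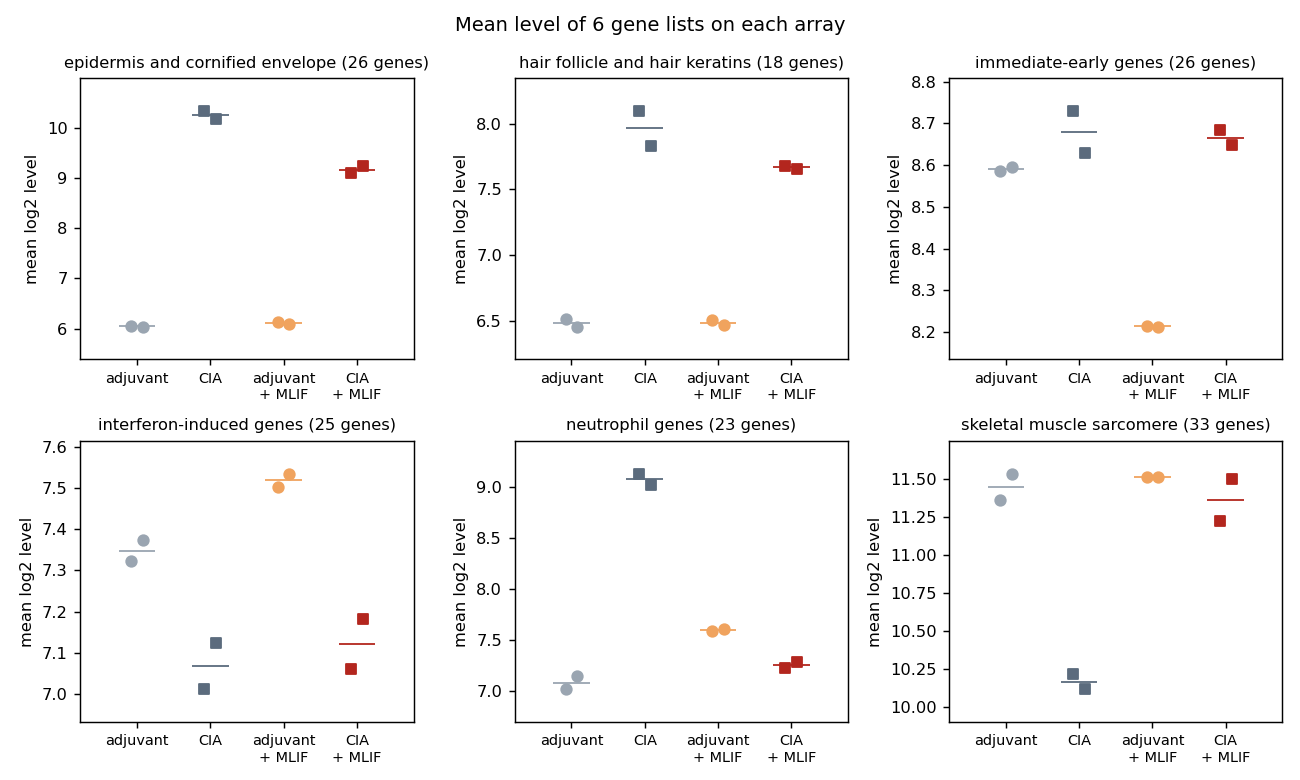
Mean centred log2 level of 6 gene lists on each array (points) with the group mean (line), by group. The scales differ between panels. The epidermal and hair lists are high in both collagen groups, the adjuvant + MLIF arrays alone are low for immediate-early genes and highest for interferon-induced genes, and neutrophil and sarcomere lists stand apart in CIA.

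Interferon-induced genes held the most falls of the 41 lists. In that list 4 of 25 members fell (0.124% of all probe sets) and none rose (median -0.38). On 22 of 25 both CIA + MLIF arrays were below both adjuvant + MLIF arrays, against 33.2% of all probe sets. Irf7, the master factor of type I interferon induction, was at 7.97 and 8.28 in CIA + MLIF and 9.14 and 9.05 in adjuvant + MLIF (difference -0.97, SE 0.17, adjusted p = 0.0372). Oasl2 was at 7.53 and 7.39 against 8.19 and 8.25 (-0.76), Oas2 at 6.77 and 6.59 against 7.41 and 7.36 (-0.70) and Xaf1 at 7.25 and 7.48 against 8.03 and 8.05 (-0.68). The CIA + MLIF arrays were the lower ones in all 4 genes. Outside the list, Rtp4 (-1.01), the restriction factor-like Trim30a (-0.84) and Gbp7 (-0.60), all known to respond to interferon, fell too; Gbp7 was chosen after its value was seen.

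For interferon-induced genes too the adjuvant + MLIF arrays were the extreme ones, this time on the high side. The list mean was 7.06 and 7.18 in CIA + MLIF, 7.502 and 7.535 in adjuvant + MLIF, 7.32 and 7.37 in adjuvant and 7.01 and 7.12 in CIA. Without peptide Irf7 fell by 0.57, Oasl2 by 0.45 and Xaf1 by 0.63, and the interaction did not pass for these (adjusted p = 0.298, 0.29 and 0.873), while it passed for Oas2 (-0.69, adjusted p = 0.0193). The 4 falls became 0 with the adjuvant + MLIF arrays averaged, without either of these arrays, and on the values as deposited. They became 1 without CIA + MLIF replicate 1, 2 in a fit of only the 4 arrays compared or without either adjuvant array, and 6 after quantile normalization. Epidermal genes were high in the group where these were low, and their part in the result was not tested.

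Among the 12 named falls and the falls of the interferon list, 8 genes have a promoter window used here, and of these Trim30a alone holds GAAA, any 2 bases and GAAA again, the core of an interferon-stimulated response element, within 250 bases before the start on either strand (2.98% of all windows). It reads on the reverse strand in the stretch at chr7:104465195-104465254 (minus strand, GRCm38.p6), printed 5′ to 3′ with the match in capitals, because it is the only such match among them.
Trim30a: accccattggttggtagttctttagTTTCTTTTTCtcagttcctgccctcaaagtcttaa
Windows without a match say only that these letters are not in them.

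Of 29 chemokines 2 fell, Cxcl9 and Ccl5 (median of the list -0.12), where 0.124% of all probe sets fell. Cxcl9, a ligand of Cxcr3 on T cells, was at 7.15 and 7.35 in CIA + MLIF and 8.37 and 8.32 in adjuvant + MLIF (difference -1.09, SE 0.12, adjusted p = 0.00239). Ccl5 was at 7.88 and 7.73 against 8.36 and 8.39 (-0.57, adjusted p = 0.0491). The groups did not overlap in either. Cxcl10 differed by -0.77 and Ccl17 by -0.63 without passing. Without peptide, collagen moved Cxcl9 by -0.64 and Ccl5 by -0.64. Of the T and NK cell genes 1 of 24 fell (0.124% of all probe sets), Cd3g of the T cell receptor complex (5.77 and 5.73 against 6.37 and 6.45, difference -0.66). It rose by 0.59 without peptide (interaction -1.25, adjusted p = 0.00156). A single call describes that gene and not its cell type. With the adjuvant + MLIF arrays averaged, or without any 1 of the 4 arrays compared, 1 chemokine was left. The fall of Cd3g did not pass in these fits, on the values as deposited or without either adjuvant array.

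Prg2, the major basic protein of eosinophil granules, had the largest fall among the genes that the naming rule chose. It was at 7.67 and 7.47 in CIA + MLIF and 8.66 and 8.74 in adjuvant + MLIF (difference -1.13, SE 0.12, adjusted p = 0.00121). In CIA it was at 9.92 and 10.02 and in adjuvant at 7.23 and 7.35. Thus collagen raised it by 2.69 without peptide and the opposite sign was measured with peptide, with an interaction of -3.82 (adjusted p = 8.67e-06). Epx, the eosinophil peroxidase, differed by -0.78 without passing. Prg2 was the only fall among 17 mast cell, basophil and eosinophil genes (median -0.17), where 0.124% of all probe sets fell.

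Other falls were smaller, where 0.124% of all probe sets fell. Mmp12, macrophage elastase, was at 6.50 and 6.66 against 7.44 and 7.38 (-0.83, adjusted p = 0.0102) and was the only fall among 24 matrix proteases and inhibitors, with none left on averaged adjuvant + MLIF arrays, without either of them or without CIA + MLIF replicate 1. Ngp, a neutrophil granule protein, was at 9.08 and 9.13 against 9.79 and 9.82 (-0.70, adjusted p = 0.0454), Cd52, a surface glycoprotein of leukocytes, fell by 0.74, H2-T24, a class I-like gene, by 0.75 and Klrb1f, a lectin-like NK cell receptor, by 0.75. CIA + MLIF arrays lay below adjuvant + MLIF arrays in each. Under the scaling as deposited, 9 of the 12 named falls no longer passed, and as many were lost with the adjuvant + MLIF arrays averaged. All 12 named rises passed in each alternative in which they were tested.

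Neutrophil genes otherwise did not pass with peptide, where 0.124% of all probe sets fell, and changed strongly without it. Of 23 measured members 1 fell, Ngp, and none rose (median -0.28), and Ngp did not pass with the adjuvant + MLIF arrays averaged or without any 1 of the 4 arrays compared. Without peptide all 23 rose (median 2.01, background 13.4%). The alarmins S100a8 and S100a9 differed by -0.78 (95% interval -1.18 to -0.38) and -1.22 (-1.90 to -0.55) with peptide and rose by 2.61 and 2.35 without. All 23 interactions passed lower, and 21 did so on the values as deposited. The list mean was 7.23 and 7.28 in CIA + MLIF, 7.59 and 7.60 in adjuvant + MLIF, 7.01 and 7.14 in adjuvant and 9.13 and 9.02 in CIA. Part of the interaction at the list mean is thus the higher level of adjuvant + MLIF over adjuvant. Ngp was at 9.00 and 8.79 in adjuvant, below its CIA + MLIF levels. Mpo, the myeloperoxidase, was at 7.36 and 7.37 against 7.66 and 7.60 with peptide and at 9.11 and 9.15 against 6.94 and 6.84 without (interaction -2.51, adjusted p = 1.28e-05), and Retnlg, a resistin-like neutrophil gene, had an interaction of -3.04. The CIA + MLIF arrays thus lay below the CIA arrays for Mpo.

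Genes of the muscle sarcomere gave no calls with peptide, where 1.17% of all probe sets passed. None of 33 sarcomere genes passed (median -0.10, range -0.59 to 0.14) and none of 24 genes of muscle calcium handling and metabolism (median 0.00). Acta1, skeletal actin, was at 13.71 and 13.86 against 13.80 on both arrays (difference -0.02, 95% interval -0.29 to 0.26), and Myh1, a fast myosin, differed by 0.01 (-0.25 to 0.27). Without peptide 31 of the 33 fell (median -1.26, background 14.1%), and 27 of 33 interactions passed higher. Myh7, the slow myosin, fell by 2.34 without peptide and differed by -0.08 with it (interaction 2.26, adjusted p = 4.88e-05). Myo18b, Mypn and a probe set of Trdn, a triadin of the calcium release complex, had interactions of 2.08, 1.77 and 2.16. Without peptide Acta1 and Myh1 differed by -0.58 and -0.94. These estimates have an error of their own, so the intervals with peptide do not test the 2 effects against each other.

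Lists of joint and bone genes also held no calls with peptide, which is near the 1.17% over all probe sets and no result about these genes. None passed among 18 osteoclast genes (median -0.15), 15 bone matrix and osteoblast genes (-0.26), 22 cartilage genes (-0.15), 24 fibrillar collagen and matrix genes (-0.16) and 21 fibroblast and synovial lining genes (-0.09). Ctsk, the collagen-degrading protease of osteoclasts, was at 9.62 and 9.96 against 10.03 and 10.00 (difference -0.22, 95% interval -0.58 to 0.13), and Acp5, their acid phosphatase, differed by -0.31 (-0.64 to 0.02). Col1a1 differed by -0.30 (-0.64 to 0.04) and Prg4, lubricin, by -0.13 (-0.44 to 0.18). Without peptide Ctsk rose by 2.28, Acp5 by 2.38 and Col1a1 by 1.06. Mmp13, the collagenase of arthritic joints, was at 9.84 and 9.82 against 10.39 and 10.36 (-0.54, adjusted p = 0.0996) with peptide and rose by 2.59 without (interaction -3.13, adjusted p = 9.47e-06). Cthrc1, a gene of activated fibroblasts, differed by 0.10 with peptide and rose by 3.53 without (interaction -3.43, adjusted p = 8.67e-06).

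In the remaining lists few members passed. Over all probe sets 1.05% were higher and 0.124% lower, so lists without a call are near that share and no result about their genes. Il1f9 was the only rise among 22 pro-inflammatory cytokines; Il1b, Il6 and Tnf differed by -0.13 (95% interval -0.59 to 0.33), 0.09 (-0.40 to 0.57) and -0.36 (-0.78 to 0.05), chosen after their values were seen. Prdm1, a factor of plasma cells and also of keratinocytes, was the only rise among 22 B and plasma cell genes (0.63). Mt2, metallothionein, rose by 0.79, in both the antioxidant and the muscle stress lists. None of these 4 lists held a rise with the adjuvant + MLIF arrays averaged. No member passed among 19 class II antigen presentation genes (median -0.25), 24 macrophage genes (-0.16), 31 cell cycle genes (-0.16), 22 adipocyte genes (0.13), 19 NF-kappaB genes, 21 complement genes or the other lists. In all, 10 of the 41 lists held a rise, 6 a fall and 25 neither.

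**Figure D5:**
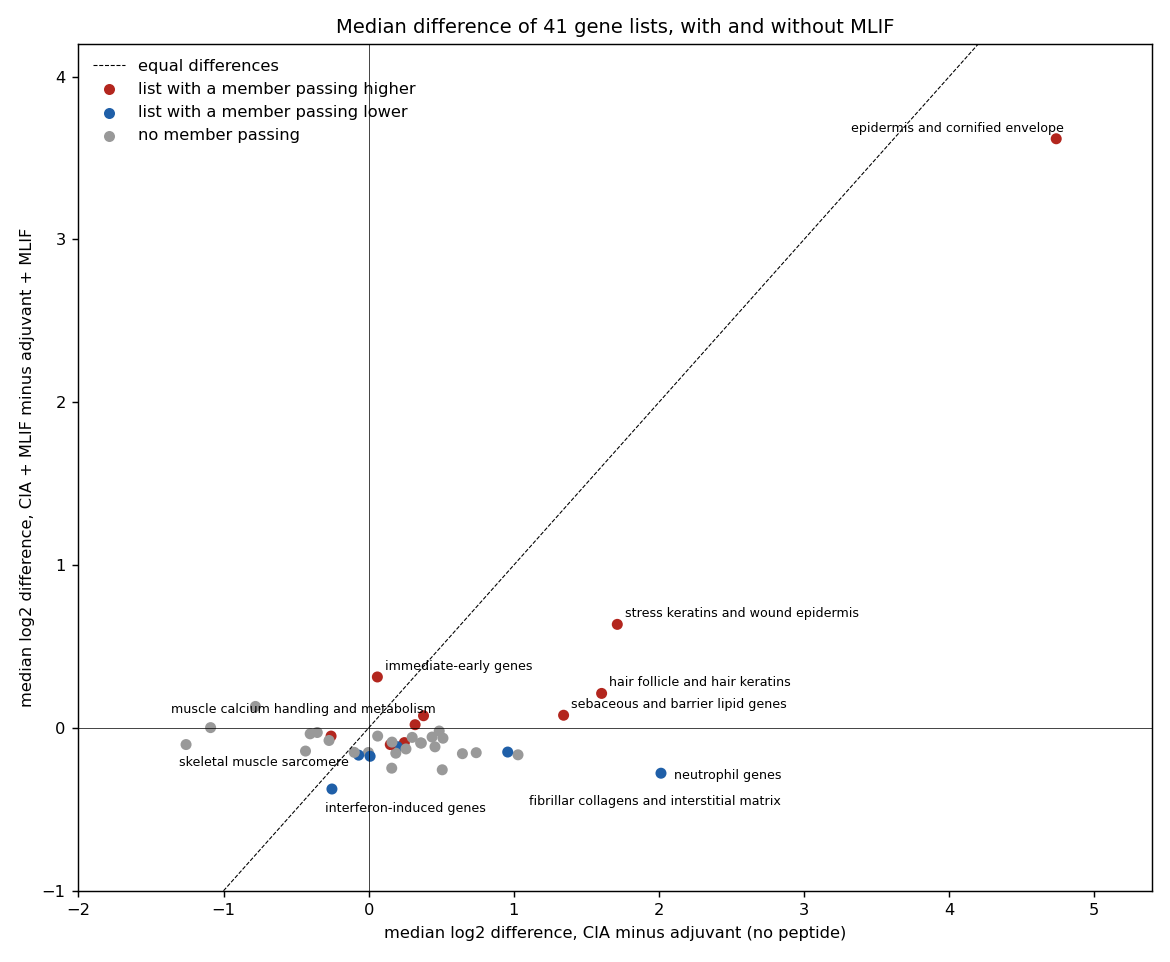
Median log2 difference of the members of 41 gene lists with peptide (vertical axis) against without peptide (horizontal axis); red lists hold a rise with peptide, blue a fall, grey neither, and the dashed line marks equal differences. The epidermal list is at 3.62 and 4.74, the neutrophil list at -0.28 and 2.01 and the sarcomere list at -0.10 and -1.26.

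Across the array, collagen called far fewer probe sets with peptide than without. Without peptide 3876 were higher (13.4%) and 4092 lower (14.1%), or 1245 and 4108 on the values as deposited, where the median difference over all probe sets moved from -0.03 to -0.25. Of the 304 rises with peptide, 231 (76%) were also higher without it, which is 5.96% of the 3876. Of the 36 falls, 14 (38.9%) were also lower, 0.342% of the 4092. The differences with and without peptide correlated at r = 0.231 over all 28944 probe sets, a description across probe sets measured on separate arrays. The interaction itself passed for 2373 probe sets higher (8.2%) and 2352 lower (8.13%), with 1626 and 469 as deposited.

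Another 51 of the 304 rises were lower without peptide. Of these, 6 carry 1 symbol: Fos, Egr1, Nr4a1, Dusp1, Abra and Spef2. Abra, a muscle protein that binds actin, rose by 0.76 with peptide and had -1.17 without. A further 19 are copies of the Snord116 small nucleolar RNA cluster that share 2 sets of values, 7 name the Y-linked Ssty2 family and 17 have no symbol, so that this count is not one of separate genes. Counted by distinct values, the 304 rises are 281 and the 36 falls 34. Among the interactions Srsy, a Y-linked multicopy gene, reached 2.70, with levels of 8.44 and 8.53 in CIA + MLIF, 8.47 and 8.51 in adjuvant + MLIF, 6.33 and 6.55 in CIA and 9.11 and 9.20 in adjuvant. The Y-linked list had no passing member with peptide (8 measured, median -0.15).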

How the data were processed

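RNA of excised, ground paws (300 ng per array, labelled with biotin) was hybridised to Affymetrix Mouse Gene 1.0 ST arrays, per the labels' protocols. The deposited table holds log2 signals, a unit read from its values, with 1 value per probe set and array. For its background correction, summary and normalization, the software is not given in the sources used. Of 35557 entries, the leading 6613 without gene annotation were taken as controls and left out. Symbols came from the platform annotation: 21789 probe sets carry 1 symbol, 1621 several and 5534 none, and 21698 of the symbols were the same in RefSeq.

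Each array was centred on the median of the 28944 tested probe sets. Group means of all 8 arrays were fitted with limma 3.58.1 under R 4.3.3 (degrees of freedom: 4 residual, 4.63 prior). Contrasts were CIA + MLIF minus adjuvant + MLIF, CIA minus adjuvant, and their difference (the interaction). These 2 collagen contrasts share no array. P-values were two-sided with Benjamini-Hochberg adjustment across the 28944 probe sets, with 0.05 as the threshold. On simulated data 3, 39, 48 and 50 of 50 changed probe sets were recovered at log2 differences of 0.5, 1, 2 and 4, with 2 false calls. Precision is limited by the number of arrays.

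Named were the 12 largest rises and falls that passed, had 1 symbol and did not overlap, the 6 smallest interaction p-values in each direction, and list members that passed, had the 4 smallest p-values or, in marker lists, the 3 highest signals. Clone names, receptors of smell, receptor and antibody segments, small RNAs and unnamed probe sets were passed over (85 rises, 14 falls). Several-symbol probe sets were passed over as well (42 rises, 0 falls), and these counts can overlap. The 41 lists (961 entries, 884 measured) and the members were chosen with earlier results of these data known. They were counted, not tested. A gene on several probe sets entered a list once. Matplotlib 3.10.9 (Python 3.11.15) drew the figures.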

Additional observations from a re-analysis of the deposited data

Results flagged for a closer look

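The collagen effect differed between peptide-treated and untreated mice by the interaction test (limma, adjusted p under 0.05) for 2373 probe sets in the higher and 2352 in the lower direction, and for each gene below. Values are the log2 collagen effect with MLIF minus that without. No group had enough arrays to look for outlying ones.

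In keratins and envelope genes of the epidermis the interaction was Krt1 -0.94, Krt2 -2.003, Krt10 -1.39, Krt14 -1.38, Krt24 -0.89, Hrnr -0.90, Lor -1.43, Krtdap -1.77, Lce1a1 -1.34, Lce1c -1.39, Calm4 -1.11 and Sbsn -1.25. In genes of keratinocyte junctions, proteases and barrier lipids it was Dsp -0.80, Perp -1.06, Sfn -0.92, Casp14 -0.67, Klk5 -1.07, Klk7 -1.90, Asprv1 -1.26, Tgm1 -1.01, Elovl4 -1.95, Alox12b -1.01, Aloxe3 -1.15, Abca12 -1.07 and Cers3 -0.71. Hair shaft genes were higher, with Krtap7-1 2.27, Krtap8-1 1.38, Krtap13 0.91, Krt31 1.01 and Krt33b 1.498, and a root sheath keratin lower, Krt25 -2.72. In keratins of stressed epidermis and an epithelial cytokine the values were Krt6a 0.71, Krt6b 1.94, Krt17 -1.71 and Il1f9 -2.47.

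Among leukocyte, matrix and interferon-related genes the interaction was Prg2 -3.82, Ngp -2.96, Mpo -2.51, Retnlg -3.04, Cd52 -1.63, Cd3g -1.25, Klrb1f -0.71, H2-T24 -0.59, Trim30a -0.87, Oas2 -0.69, Mmp12 -1.15, Mmp13 -3.13, Cthrc1 -3.43, Prdm1 -0.75 and Mt2 -1.26. It was higher for immediate-early genes, Fos 1.92, Fosb 1.33, Nr4a1 1.71, Egr1 1.56, Atf3 0.95 and Dusp1 1.66, for muscle genes, Trdn 2.16, Myo18b 2.08, Myh7 2.26 and Mypn 1.77, and for the Y-linked Srsy 2.70.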

How the results depend on the processing

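Every one of 738 medians of lists under the alternatives was compared with the centred fit: 702 moved by less than the spread between replicates and 36 by more. No named gene changed direction under any alternative run. The count of rises (304) was 175 with the adjuvant + MLIF arrays averaged as 1, and 171 to 370 when each of the 8 arrays was left out. The count of falls (36) was 92 at an adjusted p under 0.10, 5 on the values as deposited, 58 after quantile normalization, 80 without the 33.3% of probe sets with the lowest signal, 68 with a trended and robust variance, 143 with array weights, 4 with the adjuvant + MLIF arrays averaged, and 4 to 65 with an array left out. Interactions in the higher direction (2373) were 1132 with 1 mean per gene, 1267 with only probe sets of 1 symbol, 1205 with the averaged arrays and 1219 to 4121 with an array left out. Those in the lower direction (2352) were 3541 at an adjusted p under 0.10, 469 as deposited, 848 with the averaged arrays and 856 to 3829 with an array left out. Where an array is left out, the lone array of its group is assumed to vary like the other groups. In the deposited values CIA replicate 1 is not centred; the cause of the other changes was not tested.

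Whether the replicate numbers pair the arrays compared could not be settled. Deviations of same-numbered CIA + MLIF and adjuvant + MLIF arrays correlated at r = 0.005 across probe sets. The adjuvant + MLIF arrays hardly differed (SD of the difference 0.0936), so this r cannot exclude pairing. Among the other pairs of groups r was 0.39 for adjuvant and CIA + MLIF and -0.108 to 0.004 for the rest. With the replicate block 261 probe sets were higher and 27 lower, and the interaction had 2285 and 2129.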
